A study of Mus musculus with 96 samples.

Results

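The genes described here are those that were enriched in the wild-type (WT) pre-somitic mesoderm (PSM) of the mouse embryo at E11.5 (days after fertilization). A gene was taken as PSM-enriched when the lower of its 2 PSM values, from males and from females, was at least 2-fold above the highest of the 14 values from the 7 other tissues, on the scale of log2(FPKM + 1). FPKM is a gene's fragment count scaled to transcript length and to sequencing depth. The rule selected 127 of 28712 genes in the table. Of the 15768 genes above 1 FPKM in any WT group, 0.805% met it. The difference between the lower PSM value and the highest other value, in log2(FPKM + 1), is called the margin below.

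The 7 other tissues were the forelimb and hindlimb buds, forebrain, midbrain, heart, liver and lung. All embryos were at E11.5 and of C57BL/6J background, and each group of tissue, sex and genotype held 3 poly(A)+ RNA-seq libraries. WT groups are compared throughout, and the groups of ∆*Firre* embryos, made by recombining a floxed allele with a CMV-Cre deleter line, which removed the gene body and promoter of the X-linked long noncoding RNA (lncRNA) gene *Firre*, serve as values that the rule did not use. Embryos came from matings of WT or ∆*Firre* males with *Firre*+/- females, and the ∆*Firre* allele had been backcrossed to C57BL/6J for 3 generations. The deposited table gives 1 value per group, so the spread between libraries is unknown, differences could not be set against it, and no test was run.

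The PSM is the unsegmented mesoderm on both sides of the caudal neural tube. New cells enter it from the tail bud, and somites, the precursors of vertebrae, skeletal muscle and dermis, are cut off from its anterior end at regular intervals. T-box factors and high Wnt and FGF signaling mark its posterior part, a segmentation clock of oscillating Notch, Wnt and FGF targets sets the timing of somite formation, and retinoic acid from the somites opposes the posterior signals. Hox genes give the cells their position along the axis.

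The 4 genes used as markers of the tissue were *T* (brachyury, the T-box factor of posterior mesoderm), *Tbx6* (a T-box factor that commits cells to paraxial mesoderm), *Msgn1* (mesogenin, a basic helix-loop-helix factor of the PSM) and *Hes7* (the oscillating repressor of the clock). The 250 bases before their annotated starts are shown because these genes had 4 of the 6 largest margins. The sequences are from RefSeq (GRCm38.p6, equal to mm10), each read 5′ to 3′ on the strand of its gene. Capitals mark every match, on either strand, to AGGTGT (T-box), CTTTGA (TCF/LEF), TGGGAA (RBPJ), CACNAG (N-box, bound by Hes repressors) and TTTATG (CDX).
T: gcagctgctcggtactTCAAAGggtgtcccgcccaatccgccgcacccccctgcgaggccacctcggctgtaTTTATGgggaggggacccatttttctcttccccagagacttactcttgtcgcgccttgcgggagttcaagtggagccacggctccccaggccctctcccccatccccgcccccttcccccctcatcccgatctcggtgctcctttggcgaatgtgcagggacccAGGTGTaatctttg
Tbx6: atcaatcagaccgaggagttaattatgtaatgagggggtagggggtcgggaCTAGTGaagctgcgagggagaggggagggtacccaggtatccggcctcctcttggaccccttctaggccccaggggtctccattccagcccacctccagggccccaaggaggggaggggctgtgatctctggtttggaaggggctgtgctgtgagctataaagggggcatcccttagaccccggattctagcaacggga
Msgn1: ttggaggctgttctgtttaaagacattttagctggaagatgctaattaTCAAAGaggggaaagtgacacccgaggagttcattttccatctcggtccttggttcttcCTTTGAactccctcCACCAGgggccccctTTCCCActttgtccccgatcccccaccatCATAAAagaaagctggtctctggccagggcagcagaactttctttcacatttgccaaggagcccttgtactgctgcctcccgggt
Hes7: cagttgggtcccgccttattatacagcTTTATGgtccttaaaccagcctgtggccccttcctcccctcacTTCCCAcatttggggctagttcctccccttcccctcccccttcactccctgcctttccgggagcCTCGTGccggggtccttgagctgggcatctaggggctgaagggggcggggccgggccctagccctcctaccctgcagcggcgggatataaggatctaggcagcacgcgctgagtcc
The windows lie at chr17:8434173-8434422 (plus strand, *T*), chr7:126781233-126781482 (plus strand, *Tbx6*), chr12:11208949-11209198 (minus strand, *Msgn1*) and chr11:69120203-69120452 (plus strand, *Hes7*). The *Hes7* window is inside the RefSeq span of its gene, which begins further upstream at 69118906. The *Msgn1* window held 5 matches, of which 2 were TCF/LEF, and none of its matches overlapped. The *T* window held 3 matches, the T-box match lying at -14 to -9 from the start. The *Hes7* window held 3 matches and the *Tbx6* window 1, an N-box. The windows of the enriched genes *Mesp2* and *Ripply2*, searched as well and not shown, held 0 and 1. Windows were found for 73 of the 127 enriched genes, 85 windows in all since a gene can have several starts. A TCF/LEF match was present in 20% of these windows and in 13.8% of all 32851 windows, a T-box match in 14.1% and 11.8%, a CDX match in 14.1% and 10.8%, an RBPJ match in 24.7% and 21.6%, and an N-box match in 28.2% and 36.7%. These are matches of letters and not tested binding sites.

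Between 12425 and 13318 genes were above 1 FPKM in a WT group, and the WT PSM groups had 12425 (males) and 12476 (females), at the low end. The number of fragments behind a value is not given. *Firre* was at 22.6 FPKM in male and 24.5 FPKM in female WT PSM, and no ∆*Firre* group exceeded 0.0703 FPKM. PSM libraries were made from 80 ng of total RNA, lung libraries from 200 ng and the others from 500 ng, so tissue and input amount cannot be told apart in any comparison with the PSM.

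The markers were far above every other tissue. *Msgn1* was at 129.6 FPKM in male and 136 FPKM in female WT PSM, and the 14 other values had a lowest and a median of 0 and a highest of 0.141 FPKM, in female heart. *T* was at 231 and 272 FPKM, against a lowest of 0.0603, a median of 0.667 and a highest of 2.03 FPKM, in female hindlimb. *Tbx6* was at 95.7 and 105 FPKM, against 0.196, 0.415 and 0.702 FPKM for the lowest, median and highest other values. These ranges were far apart, as was that of *Hes7*, which was at 32.2 FPKM in males and 45.2 FPKM in females and between 0.0475 and 0.358 FPKM elsewhere. On the log2(FPKM + 1) scale the margins were 6.84 for *Msgn1*, 6.26 for *T*, 5.83 for *Tbx6* and 4.61 for *Hes7*. Among the 12466 genes above 1 FPKM on average in WT PSM, *T* was higher than 97.4%, *Msgn1* than 95.0%, *Tbx6* than 93.2% and *Hes7* than 80.0%. In bulk tissue, more cells of a type and more RNA per cell cannot be told apart.

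**Figure D1:**
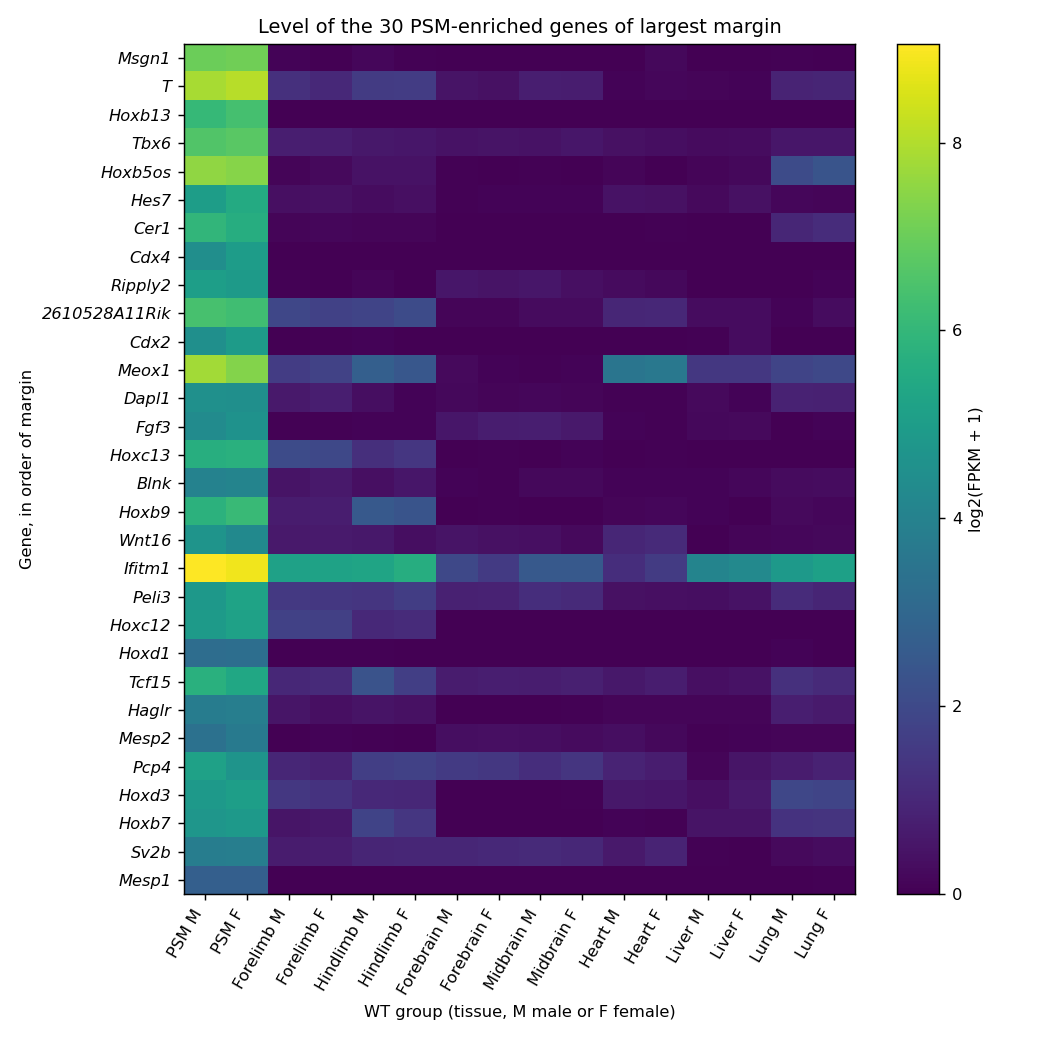
Level of the 30 enriched genes of largest margin (rows, from largest to smallest margin) in the 16 WT groups (columns), as log2(FPKM + 1). *Msgn1*, *T*, *Hoxb13* and *Tbx6* head the order, and the brightest cells are *Ifitm1* in PSM, which is also visible in the limb buds and lung.

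The 127 genes spanned a wide range of level and margin. The lower PSM value ran from 1.32 to 459 FPKM with a median of 15.9 FPKM, and it was at least 10 FPKM for 80 genes. The margin ran from 2.0-fold to 114-fold on the FPKM + 1 scale, with a median of 3.30-fold. It was at least 4-fold for 51 genes and at least 8-fold for 24, and the highest other value was below 1 FPKM for 43. By RefSeq type, 109 were protein-coding, and 5 had no match in RefSeq. The 12 lncRNA genes were 9.45% of the enriched genes against 4.45% of all genes tested. The 109 include *D130058E05Rik*, which took the type of *Gbx2*, another enriched gene, through a synonym. These values are a description, since they chose the genes.

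Genes of somite formation were, after the 4 markers, the list with the highest share: 9 of 26 were enriched (34.6%), and the median margin of the list was -0.19 beside -0.74 over all genes tested. *Meox1*, a homeobox gene of the somite, was at 223 FPKM in male and 166 FPKM in female PSM, and its highest other value was 11.4 FPKM, in female heart. *Cer1*, a secreted antagonist of Nodal and BMP that is expressed in nascent somites, was at 61.3 and 49.0 FPKM, against a median of 0.0220 and a highest of 1.23 FPKM elsewhere. Both genes were higher in males than in females. *Ripply2*, which ends *Tbx6* activity at the somite border, was at 32.6 and 29.7 FPKM and at most 0.474 FPKM in other tissues. *Tcf15* (paraxis), needed for somites to become epithelial, was at 53.1 and 41.4 FPKM, with 3.97 FPKM in male hindlimb as the highest other value. *Mesp2*, which sets the segment border, was at 9.27 and 12.3 FPKM, and its neighbor *Mesp1* at 5.62 and 5.71 FPKM. Neither exceeded 0.303 FPKM outside the PSM. The forkhead genes *Foxc1* and *Foxc2* were also enriched, with margins of 1.58 and 1.73. The list genes of later somite derivatives were low: *Myod1* and *Myog*, the muscle determination and differentiation factors, were at 0.155 FPKM or less in both PSM groups, and *Pax1*, of the sclerotome, was at 3.62 FPKM in males and 1.31 FPKM in females.

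Genes of the tail bud and axial progenitors contributed *T*, *Cdx1*, *Cdx2*, *Cdx4* and *Sall4*, 5 of 22. The caudal-type homeobox genes were nearly absent elsewhere. *Cdx4* was at 21.4 FPKM in males and 30.9 FPKM in females, against a highest other value of 0.00713 FPKM. *Cdx2* was at 22.0 and 30.5 FPKM, against 0.242 FPKM, and *Cdx1* was lower, at 2.56 and 3.07 FPKM, against 0.244 FPKM. *Sall4*, a zinc finger factor of progenitor cells, was at 50.1 and 57.6 FPKM, with 10.9 FPKM in male midbrain as the highest other value. In 11 of the 22 genes both PSM values were above all others, whatever the size, beside 4.74% of all genes tested. *Greb1* (27.0 and 47.5 FPKM) and *Nkx1-2* (3.73 and 5.98 FPKM), the latter a marker of neuromesodermal progenitors, were among those short of 2-fold.

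Of the 26 genes of the Wnt list, 4 were enriched and 10 had both PSM values on top. *Wnt3a*, the ligand that maintains the tail bud, was at 12.8 FPKM in males and 18.0 FPKM in females, against a highest other value of 4.92 FPKM in female forebrain. *Wnt8a* was low, at 1.996 and 1.75 FPKM, and was at most 0.142 FPKM elsewhere. *Sp5*, a direct Wnt target, was at 10.6 and 16.9 FPKM against 4.0 FPKM in female midbrain, and the secreted Wnt inhibitor *Dkk1* at 12.5 and 10.5 FPKM against 4.37 FPKM in male liver. The general Wnt target *Axin2*, at 15.3 and 18.2 FPKM, lay below a median of 24.6 FPKM in other tissues. *Wnt5a* was the most abundant ligand of the list, at 107 and 130.4 FPKM, and was nearly as high in male forelimb (99.7 FPKM).

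Of 19 FGF genes, 4 were enriched and 8 had both PSM values on top. *Fgf3* was at 19.9 FPKM in males and 23.4 FPKM in females, against a highest other value of 0.682 FPKM, in male midbrain. *Fgf4* was at 6.10 and 6.04 FPKM against 0.365 FPKM, and *Fgf18* at 25.7 and 24.9 FPKM against 10.4 FPKM in male forelimb. The phosphatase *Dusp4*, a feedback inhibitor of ERK, was at 61.6 and 71.1 FPKM against 26.3 FPKM in female forebrain. *Fgf8*, the best known FGF of the posterior PSM, was at 8.08 and 9.92 FPKM and was higher in male hindlimb, at 26.9 FPKM, where the apical ridge expresses it.

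The Notch and clock list held *Hes7* as its only enriched gene of 20. The 2 Notch ligands of the PSM fell short, with midbrain as the highest other tissue: *Dll1* was at 60.2 and 76.5 FPKM in PSM and at 38.7 FPKM in male midbrain, and *Dll3* was at 51.3 and 61.6 FPKM against 26.8 FPKM. *Lfng*, the glycosyltransferase that modulates Notch in the clock, missed 2-fold narrowly, with 72.3 and 73.1 FPKM against 36.0 FPKM and a margin of 0.99. *Hes1*, another cycling gene of the PSM, was at 23.2 and 23.3 FPKM, near the median of 22.4 FPKM in the other tissues. Of 13 retinoic acid genes only *Cyp26a1*, the enzyme that degrades retinoic acid in the tail bud, was enriched, at 18.3 and 23.4 FPKM against 4.33 FPKM in male forelimb. *Aldh1a2*, the synthesizing enzyme of the somites, was at 57.1 and 49.9 FPKM in PSM and at 71.8 FPKM in female lung, and the receptor gene *Rarb*, at 0.237 and 0.280 FPKM, was below every other WT value (lowest 0.797 FPKM).

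All 39 Hox genes were above 1 FPKM in both PSM groups, 18 had both PSM values above every other tissue and 12 were enriched. *Hoxb13*, the most 5′ gene of its cluster, was at 65.9 FPKM in males and 82.5 FPKM in females, and its 14 other values had a median of 0 and a highest of 0.00944 FPKM. *Hoxc13* was at 50.4 and 52.7 FPKM and *Hoxc12* at 29.4 and 34.9 FPKM, against 3.23 and 2.37 FPKM in male forelimb. *Hoxa13* and *Hoxd13*, the remaining genes of paralog group 13, were well expressed in PSM, at 28.8 and 68.9 FPKM in males, but were higher in male forelimb, at 79.4 and 228 FPKM. The limb buds held the higher value for the 5′ genes of the *Hoxa* and *Hoxd* clusters and the PSM for those of *Hoxb* and *Hoxc* at groups 12 and 13. Enrichment was not limited to posterior paralogs: 4 of 12 genes of groups 1 to 4, 5 of 15 of groups 5 to 9 and 3 of 12 of groups 10 to 13 were enriched. The anterior ones were *Hoxb1* (26.8 and 28.7 FPKM), *Hoxd1* (8.49 and 8.66 FPKM), *Hoxd3* (28.4 and 32.7 FPKM) and *Hoxd4* (53.0 and 59.1 FPKM). By cluster, 5 of 10 *Hoxb*, 3 of 9 *Hoxc*, 3 of 9 *Hoxd* and 1 of 11 *Hoxa* genes were enriched, the last being *Hoxa7*.

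**Figure D2:**
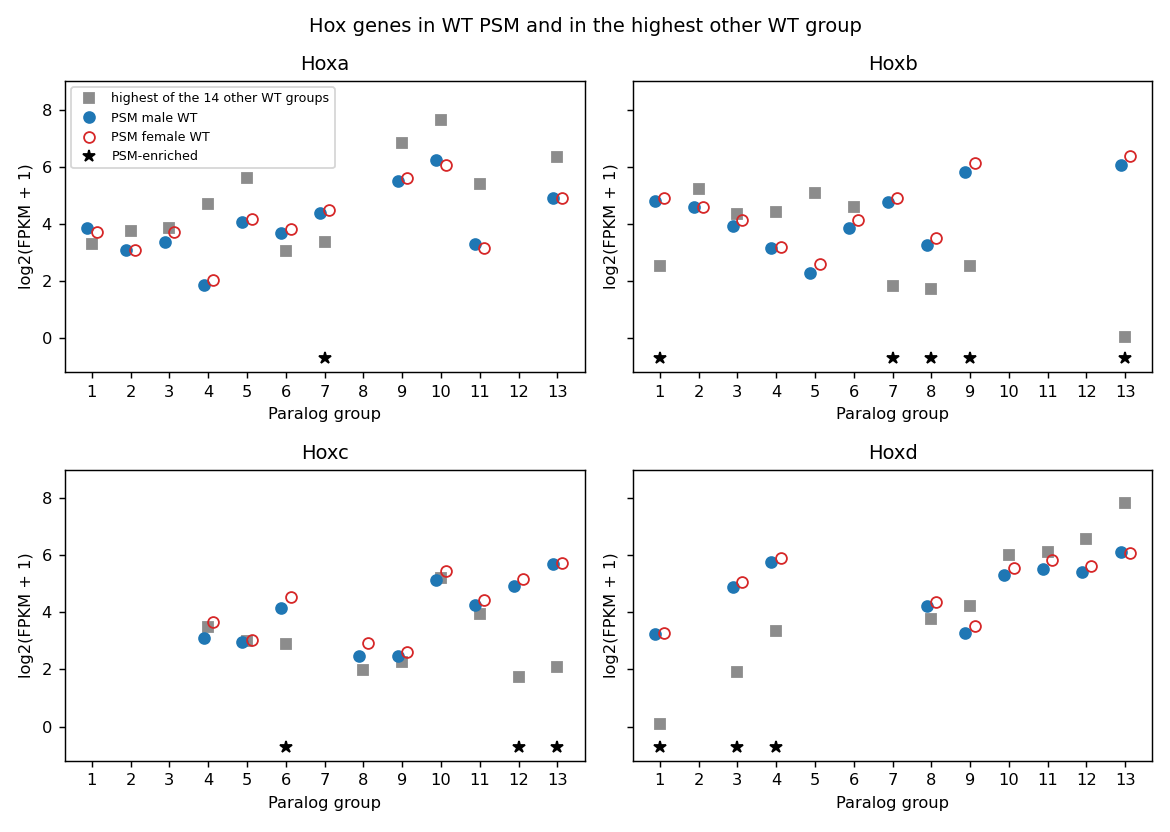
The 39 Hox genes by cluster and paralog group (horizontal axis), as log2(FPKM + 1) in male (filled) and female (open) WT PSM and in the highest of the 14 other WT groups (grey squares), with stars under the 12 enriched genes. The squares lie above the circles for *Hoxa9* to *Hoxa13* and *Hoxd9* to *Hoxd13* and near 0 for *Hoxb13* and *Hoxd1*.

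The spans of the Hox clusters, from the first to the last Hox gene on GRCm38.p6, held 6 further enriched genes, all lncRNA genes by RefSeq. *Hoxb5os* (chr11:96291037-96306910) was at 186 FPKM in males and 168 FPKM in females, against 4.06 FPKM in lung, and had the fifth largest margin of all (5.06). *Gm53* (chr11:96251660-96264484) was at 54.4 and 66.8 FPKM, *Hoxaas3* (chr6:52201124-52213597) at 48.1 and 46.4 FPKM, *Haglr* (chr2:74748422-74762896) at 13 and 13.5 FPKM, *Hoxd3os1* (chr2:74710044-74716130) at 12.3 and 12.6 FPKM and *Hotair* (chr15:102944062-102947946) at 9.03 and 10.6 FPKM. *Hoxb5os* overlaps *Hoxb5* and *Hoxb6*, *Hoxd3os1* overlaps *Hoxd3*, and *Hoxaas3* overlaps *Hoxa3*, *Hoxa5* and *Hoxa6*. The library kit does not mark strand, so reads of these genes and of the overlapped Hox genes cannot be told apart. The coding genes that *Hoxb5os* overlaps were not enriched, *Hoxb5* being at 3.78 and 4.98 FPKM and *Hoxb6* at 13.5 and 16.5 FPKM.

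A total of 88 enriched genes were in none of the lists. *Ifitm1*, an interferon-induced membrane protein gene, was the most abundant of all, at 529 FPKM in males and 459 FPKM in females, and its highest other value, 49.1 FPKM in female hindlimb, was itself substantial. Its family has close paralogs, so its separate value is uncertain. The little characterized coding gene *2610528A11Rik* was at 84.5 and 76.6 FPKM against 3.17 FPKM, and *Dapl1*, a death-associated protein-like gene, at 22.5 and 21.8 FPKM against 0.819 FPKM. *Blnk*, known as an adaptor of B cell signaling, was at 15.1 and 15.9 FPKM against 0.532 FPKM, and *Peli3*, an E3 ubiquitin ligase, at 27.4 and 36.8 FPKM against 2.11 FPKM. *Pcp4*, a calmodulin regulator, was at 34.9 and 25 FPKM against 2.34 FPKM. *Sv2b*, a synaptic vesicle protein gene, was at 13.1 and 13.6 FPKM against 1.14 FPKM in midbrain, and *Wnt16*, a Wnt ligand outside the Wnt list, at 24.7 and 18.5 FPKM against 1.10 FPKM in heart. In all of these both PSM values were more than 6-fold above the other 14 on the FPKM + 1 scale. Among further transcription factor genes, *Dmrt2*, which acts in somite patterning, had a margin of 2.35, *Gbx2* of 1.495 and *Foxb1* of 1.60, the last 2 with their highest other value in midbrain. *Slc2a3*, the glucose transporter GLUT3, was at 170.4 and 178 FPKM against 50.9 FPKM in hindlimb. *Noto*, a homeobox gene of the node and notochord, was enriched at 4.06 and 4.39 FPKM and was the only such gene of 10 in the notochord and floor plate list.

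Some enriched genes are known from epithelia. *Sfn* (stratifin) was at 62.7 FPKM in males and 61.4 FPKM in females, against 22.7 FPKM in male forelimb. The keratin genes *Krt36* and *Krt35* were near 2 FPKM in PSM, at 2.07 and 2.37 FPKM and at 1.69 and 1.74 FPKM. These 3 genes were picked after their values were seen. The 8 genes of the surface ectoderm list included none that was enriched, and 7 of them were above 1 FPKM in both PSM groups, as were 77.9% of all genes tested. *Krt5* was at 16.3 and 15.1 FPKM, *Trp63* at 9.31 and 10.2 FPKM and *Cdh1* at 21.7 and 25.9 FPKM. The summed level of that list was 105 and 109 FPKM in PSM and from 1.06 to 161 FPKM in the other 14 groups. The part of the surface ectoderm in the values of the epithelial genes was not tested.

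The other cell types were measured in the same way. The 11 red blood cell genes summed to 28999 FPKM in male and 45741 FPKM in female WT PSM, within the range of 6438 to 52807 FPKM of the other tissues, and the globin genes alone held 4.62% and 7.55% of all FPKM in the PSM groups. Of the 14 hindgut endoderm genes, 11 were above 1 FPKM in both PSM groups (78.6%, beside 77.9% of all genes tested). The list summed to 264 FPKM in males and 271 FPKM in females, against 26.3 to 231 FPKM elsewhere. *Epcam* was at 30.9 and 29.7 FPKM, *Cldn6* at 66.0 and 66.8 FPKM and *Foxa2* at 1.66 and 1.52 FPKM. The only enriched gene of the list, *Cdx2*, is also in the tail bud list. Of the 16 neural tube genes, 4 were above 1 FPKM in both groups, *Sox2* being the highest at 13.9 and 17.3 FPKM, and *Sox1*, *Pax6* and *Olig2* were at 0.0638, 0.152 and 0.0793 FPKM in males. *Pax6* was higher in females, at 0.553 FPKM, as was the brain gene *Lhx2*, at 0.165 and 1.81 FPKM. Of the 12 limb bud genes, 6 were above 1 FPKM in both PSM groups, and the list, which holds *Hoxa13* and *Hoxd13*, summed to 128 and 129.8 FPKM in PSM and to between 18.0 and 903 FPKM elsewhere, with a median of 106 FPKM. Its limb identity genes were at 0.0315 and 0.0363 FPKM (*Tbx5*) and at 0.0202 and 0.105 FPKM (*Tbx4*). The 8 heart genes summed to 12.8 and 10.3 FPKM, against 0.904 to 15889 FPKM elsewhere, with *Actc1* alone above 1 FPKM in both groups (11.0 and 7.79 FPKM) and *Nkx2-5* listed at 0 in both. The 5 liver genes summed to 0.904 and 3.47 FPKM, against 0.452 to 8371 FPKM elsewhere, and *Alb* was at 0.00950 and 0.0542 FPKM. None of the genes in the neural tube, neural crest, surface ectoderm, endothelium, blood, kidney and lateral mesoderm, limb bud, heart, liver, lung and brain lists was enriched.

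The tissue with the highest value after the PSM was most often a limb bud: the hindlimb for 34 of the 127 genes and the forelimb for 23, followed by lung (22), heart and midbrain (15 each), forebrain (11) and liver (7). Taking each tissue alone, a gene was called different when both PSM values were at least 2-fold above or below both values of the other tissue. Hindlimb differed from PSM in the fewest genes, with 508 higher in PSM (3.22% of genes tested) and 428 lower (2.71%). Forelimb had 582 higher (3.69%) and 797 lower (5.05%), and lung 453 higher (2.87%) and 926 lower (5.87%). Forebrain had 697 higher (4.42%) and 1227 lower (7.78%), and midbrain 703 higher (4.46%) and 1584 lower (10%). Liver had 1204 higher (7.64%) and 1504 lower (9.54%), and heart 1103 higher (7%) and 1627 lower (10.3%). Lower calls exceeded higher calls against every tissue except the hindlimb. This order turned with the scaling for the limb buds: against forelimb, 684 genes were higher and 676 lower in PSM under median-of-ratios scaling and 439 and 1037 with globin genes left out and group sums made equal, and against hindlimb 434 and 507 in the latter setting. Across the 15768 genes, mean log2(FPKM + 1) in PSM correlated with that of hindlimb at r = 0.95 and with that of heart at r = 0.86, the highest and lowest of the 7. Genes are not independent replicates, and all groups share the processing.

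Among the 15768 genes tested, the same rule selected 2 genes in hindlimb, 60 in forebrain, 72 in forelimb, 101 in lung, 181 in midbrain, 539 in heart and 694 in liver. A gene similarly high in both limb buds, or in both brain regions, could meet it in neither. The counts thus depend on which tissues were compared. Without both limb buds the PSM set grew from 127 to 209 genes.

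Both PSM values lay below all 14 others, by any amount, for 1113 genes (7.06% of genes tested) and above all of them for 748 (4.74%). By the mirrored rule, with the higher PSM value at least 2-fold below the lowest of the other 14, 31 genes were depleted (0.197% of genes tested). *Col3a1* was at 2.18 FPKM in males and 3.37 FPKM in females, and between 90.0 and 318 FPKM elsewhere with a median of 164 FPKM. *Col1a2* was at 5.40 and 5.39 FPKM, against a lowest other value of 56.3 FPKM, and *Col1a1* at 1.83 and 3.15 FPKM, against 15.6 FPKM. The collagen VI genes *Col6a1*, *Col6a2* and *Col6a3* were all below 1 FPKM in PSM and at least at 3.02 FPKM in every other group. The axon guidance receptor genes *Robo2* (0.662 and 0.494 FPKM) and *Unc5c* (0.281 and 0.293 FPKM) were depleted as well, against lowest other values of 8.16 and 3.77 FPKM. *Pkdcc*, a secreted kinase gene, was at 0.994 and 0.983 FPKM against 9.66 FPKM, *Lgals1* (galectin-1) at 33.4 and 43.7 FPKM against 144 FPKM, and *Cdo1* (cysteine dioxygenase) at 4.40 and 4.45 FPKM against 16.5 FPKM. In ∆*Firre* groups, 24 of the 31 met the mirrored rule.

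The threshold cut through a continuous range of margins. Just inside it were *Cnksr3* (1.001), *Met* (1.01), *Lefty2* (1.01), *Hoxa7* (1.02) and *Rab15* (1.02), and just outside were *Smc6* (0.999), *Piwil4* (0.998), *Gm28723* (0.99), *Lfng* (0.99) and *Hoxaas2* (0.98). *Lefty2*, an inhibitor of Nodal, was at 1.34 FPKM in males and 1.32 FPKM in females, so 1 FPKM of pseudocount weighs heavily on its margin.

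The ∆*Firre* groups, which the rule did not use, repeated most of the pattern. Of the 127 genes, 115 also met the rule among the 16 ∆*Firre* values, and in all 127 both ∆*Firre* PSM values were above the other 14. In these groups 141 genes met the rule (0.893% of 15782 genes above 1 FPKM in any of them), so the shared genes were 90.6% of the WT set and 81.6% of the ∆*Firre* set. The 12 genes that did not meet it had WT margins of 2.0-fold to 2.63-fold and ∆*Firre* margins of 1.36-fold to 1.95-fold. They included *Met*, *Fgf18* and *Arg1*. Among the 26 genes that met the rule in ∆*Firre* groups alone were *Dll1*, *Dll3*, *Lfng*, *Lef1* and *Greb1*. *Lef1*, a nuclear effector of Wnt signaling, was at 57.7 and 69.3 FPKM in WT PSM and at 95.5 and 77.1 FPKM in ∆*Firre* PSM, in males and females.

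**Figure D3:**
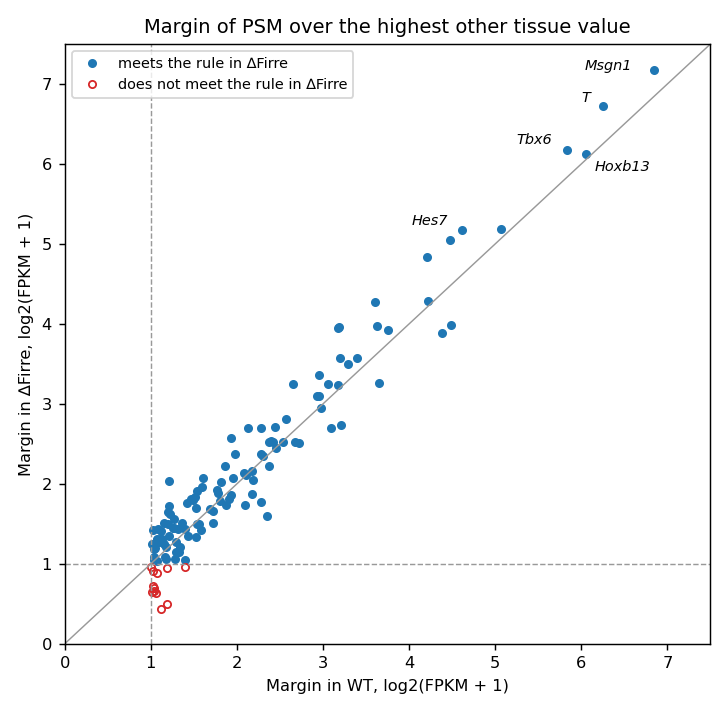
Margin of each of the 127 enriched genes in WT groups (horizontal axis) and in ∆*Firre* groups (vertical axis), in log2(FPKM + 1), with the line of equal margins and dashed lines at the threshold of 1. Filled points are the 115 genes that meet the rule in both genotypes, and open points are the 12 that do not, all of which lie at WT margins below 1.5.

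On the FPKM + 1 scale, no enriched gene differed between ∆*Firre* and WT PSM by 1.5-fold or more, one way, in both sexes. Over all 12502 genes with a mean above 1 FPKM in the 4 PSM groups, 1 was higher (0.008%) and 7 were lower (0.056%), *Firre* among the latter. Differences of any size nevertheless had a direction. Of the 127 genes, 65 (51.2%) were higher in ∆*Firre* PSM in both sexes and 28 (22.0%) were lower in both, while over all genes tested the shares were 27% and 19%. The WT values that chose the genes enter these differences too, so the counts are not independent of the rule.

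The direction differed between groups of enriched genes. All 4 markers were higher in ∆*Firre* PSM in both sexes, *T* being at 231 FPKM in WT and 343 FPKM in ∆*Firre* males and at 272 and 321 FPKM in females. *Tbx6* was at 95.7 and 136 FPKM in males and at 105 and 122 FPKM in females. The 12 enriched Hox genes were higher in both sexes for 11, *Hoxb13* being the exception in females (82.5 and 69.4 FPKM), and 34 of all 39 Hox genes were higher in both. The 4 enriched genes of the Wnt list were higher in both sexes as well, *Sp5* being at 10.6 and 20.7 FPKM in males and at 16.9 and 18.7 FPKM in females. The enriched ligand *Wnt16*, outside that list, was lower in both, at 24.7 and 19.7 FPKM in males and at 18.5 and 13.6 FPKM in females. Of the 9 enriched genes of somite formation, only *Foxc1* was higher in both sexes, and 4 were lower in both. *Ripply2* was at 32.6 FPKM in WT and 19.5 FPKM in ∆*Firre* males and at 29.7 and 20.2 FPKM in females. *Meox1* was at 223 and 178 FPKM in males and at 166 and 132 FPKM in females. The other 2 were *Tcf15* and *Cer1*. *Noto* was at 4.06 FPKM in WT and 9.44 FPKM in ∆*Firre* males and at 4.39 and 6.65 FPKM in females. These differences reached 1.5-fold in both sexes with a pseudocount of 0.1 FPKM but not of 1 FPKM. With the threshold lowered to 1.2-fold, 13 of the 127 genes differed in both sexes, 6 higher (*Msgn1*, *Hoxa7*, *Hoxb7*, *Hotair*, *Noto* and *4933439K11Rik*) and 7 lower (*Meox1*, *Ripply2*, *Dmrt2*, *Wnt16*, *Tph1*, *Met* and *2610016A17Rik*). At that threshold 0.824% of all genes tested were higher and 0.984% lower.

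**Figure D4:**
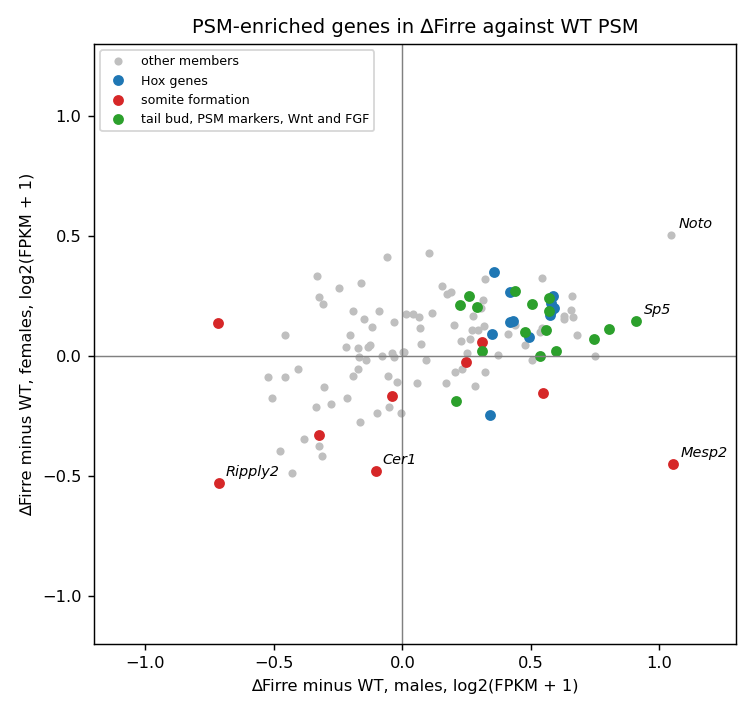
Difference of ∆*Firre* minus WT PSM for each of the 127 enriched genes in males (horizontal axis) and females (vertical axis), in log2(FPKM + 1), by gene list. Hox genes and genes of the tail bud, PSM marker, Wnt and FGF lists lie mostly in the upper right, *Ripply2* lies in the lower left, and *Mesp2* lies at the right and below 0.

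Levels of other cell types moved between the same groups. The summed red blood cell genes were at 28999 FPKM in WT and 20410 FPKM in ∆*Firre* male PSM, and at 45741 and 37106 FPKM in females. Leaving out the globin genes and making the group sums equal moved the median difference of all genes in males from -0.01 to 0.15. The summed FPKM had been 625639 in WT and 545108 in ∆*Firre* male PSM, with 4.62% and 3.73% of it from globin genes. The part of each step in this shift was not tested. With this setting, 62 of the 127 genes were higher in both sexes and 20 lower, beside 25.5% and 15.6% of all genes tested. Under median-of-ratios scaling 58 were higher and 32 lower, beside 21.2% and 24.7% of all genes. These scalings were added after the data were seen. All 7 surface ectoderm genes with a mean above 1 FPKM were lower in both sexes, the list summing to 105 and 77.4 FPKM in males and to 109 and 96.2 FPKM in females. Of the 9 genes of the notochord and floor plate list with a mean above 1 FPKM, *Noto* among them, 8 were higher in both sexes, and the median differences were 0.50 in males and 0.17 in females. Of the 8 endothelial genes, 5 were higher in both sexes and 0 lower in both, with medians of 0.31 and 0.24. The liver list summed to 31.3 FPKM in male ∆*Firre* PSM and to at most 3.47 FPKM in the other PSM groups. In male ∆*Firre* PSM *Afp* was at 21.9 FPKM and *Apoa1* at 5.37 FPKM, against 1.93 FPKM or less in the other PSM groups. The part of these cell types, and of where along the axis the tissue was cut, in the differences was not tested.

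WT males and females were close. The difference between the sexes in WT PSM had a median size of 0.14 in log2(FPKM + 1) over the 127 genes, and it reached 1.5-fold for 2 of them. Of these, *Sp5* was at 10.6 FPKM in males and 16.9 FPKM in females. Of the 127 genes, 75 (59.1%) were higher in females, beside 43.6% of all genes tested. All 12 enriched Hox genes and all 5 tail bud genes were higher in females, and 6 of the 9 genes of somite formation were higher in males. With 1 value for each sex, this difference cannot be told apart from the spread between libraries.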

How the data were processed

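Poly(A)+ RNA-seq libraries (TruSeq v2, 10 PCR cycles, no strand information) were made from 8 tissues of E11.5 embryos, 96 libraries in 32 groups of 3. The authors mapped reads to mm10 with TopHat2 2.1.1 and Bowtie2 2.2.8 and quantified GENCODE vM9 genes with Cuffdiff 2.2.1. The deposited values are FPKM, 1 per group over 3 libraries; 16 columns that merge the sexes were not used. Depth per library is unknown.

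Values were compared as log2(FPKM + 1), which understates the change of low genes, with Python 3.11.15, pandas 2.3.3 and NumPy 2.4.6. Genes above 1 FPKM in any of the 16 group values of a genotype were the background. The rule was tested on simulated data. Enriched genes and the 21 gene lists were chosen with earlier results of these data known. Genes named were the 4 markers, the 30 of largest margin, enriched genes in a list, other list genes, 5 on each side of the threshold, the 10 most depleted and *Firre*, and others named were chosen after their values were seen. Some genes that this rule selects are not reported here. Positions are RefSeq, GRCm38.p6, matched by symbol or unique synonym for 122 of 127 enriched genes and 95.5% of the background. Alternatives changed the pseudocount, fold, scaling, sexes and tissues.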

Additional observations from a re-analysis of the deposited data

Results flagged for a closer look

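*Mesp2* and *Pcp4* stood out among the named enriched genes because the difference between ∆*Firre* and WT PSM went in opposite directions in the sexes by at least 1.2-fold each. Whether the sexes differ in this was not tested, since each group has 1 value.

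*Mesp2* was at 9.27 FPKM in WT and 20.3 FPKM in ∆*Firre* males and at 12.3 and 8.76 FPKM in females, a difference of 1.05 in males and -0.45 in females in log2(FPKM + 1), so that the female difference minus the male difference was -1.51. *Mesp2* is expressed in a stripe that forms and clears with each somite. *Pcp4* was at 34.9 and 27.5 FPKM in males and at 25 and 31.8 FPKM in females, and its female difference minus its male difference was 0.667.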

How the results depend on the processing

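The 127 enriched genes became 226 with a pseudocount of 0.1 FPKM, 231 at 1.5-fold and 209 without both limb buds. These settings relax the rule and can only add genes, so none could be lost. At 4-fold 51 remained. Depleted genes numbered 86, 89 and 4 with a pseudocount of 0.1 FPKM, at 1.5-fold and at 4-fold, and genes enriched in ∆*Firre* groups 254, 248 and 54. Counts of genes that differed between PSM and a tissue rose or fell in the same way. With a pseudocount of 0.1 FPKM they were 2895 for forelimb, 2098 for hindlimb, 3485 for forebrain, 3992 for midbrain, 4579 for heart, 4678 for liver and 2869 for lung. At 1.5-fold they were, in that order, 3256, 2118, 3474, 4231, 5574, 4995 and 2781, and at 4-fold 355, 274, 650, 849, 886, 916 and 429. Enriched genes that differed between ∆*Firre* and WT PSM in both sexes numbered 0, and 1 (*Noto*) with a pseudocount of 0.1 FPKM and 13 at 1.2-fold. Median-of-ratios scaling kept each of these counts within 1.5 times, as did scaling without globin genes, which was not run for genes that differed between ∆*Firre* and WT PSM. Both scalings also kept the counts of enriched genes higher or lower in ∆*Firre* PSM in both sexes within 1.5 times. Either sex alone and a filter on the mean, run for enriched, depleted and ∆*Firre*-enriched genes, and leaving out brain, heart, liver or lung, run for enriched genes in WT, did the same. Not every gene was kept: 126 of the 127 enriched genes remained under median-of-ratios scaling, 110 without globin genes and 98 with the filter on the mean. For the 31 depleted genes these numbers were 30, 29 and 31. The margins of 49 named genes stayed at 2-fold or more under median-of-ratios scaling, and were not computed without globin genes. A pseudocount of 0.1 FPKM and either sex alone can only raise the margin of an enriched gene, so they could not have failed. No paired analysis was possible because each group has 1 deposited value. The unknown depth and library spread limit all values, most of all those near 1 FPKM.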
